A study of Homo sapiens with 4 samples.

Results

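The highly methylated 100 kb bins of the HEK293T genome were chosen by their methylation in wild-type (WT) cells. The genome was cut into consecutive 100 kb bins from the first base of each chromosome, and the bins of chromosomes 1 to 22 except 19 with 200 or more reads in every library were eligible. The level of a bin is the percentage of its CpG reads that carried a methylated cytosine, summed over both strands. The members are the bins whose mean level over the 2 WT libraries was 75% or more. They numbered 5225 of 26403 eligible bins, or 19.8%, and held 6439574 of the 25671420 CpGs of the eligible bins. Because the WT levels chose them, these levels are given as a description and were not tested.

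The data are 4 enzymatic methyl sequencing (EM-seq) libraries of HEK293T cells, an immortalised human line of embryonic kidney origin. In EM-seq, enzymes convert unmethylated cytosine so that it is read as T, while methylated cytosine is still read as C. There were 2 libraries of WT cells and 2 of cells lacking ZNF274 (ZNF274KO), a KRAB zinc finger protein that recruits the H3K9me3 machinery. The knockout was made with Cas9 and a pair of guides that flank the gene, followed by puromycin selection and sorting of single cells. The WT libraries carry the genotype label WT and no treatment other than the assay is given for either group. Whether the libraries of a group came from separate clones or cultures is not stated in the labels or methods, so any p-value measures the spread between these libraries only. This spread may be technical in part. The WT libraries also differed in relative depth on part of chromosome 1, as given with the depths below, and the cause was not tested. The libraries held between 241598512 and 295114493 C or T reads at CpGs of the autosomes and X, with a median of 8 to 10 reads per listed CpG, and a read over several CpGs was counted at each. Values of single libraries are given in the order of the library numbers.

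In most human cells the bulk of CpGs is methylated. Transcribed gene bodies are marked by H3K36me3, which recruits the methyltransferase DNMT3B and keeps the body highly methylated, whereas CpG-rich promoters (CpG islands) are usually free of methylation. Cultured and transformed lines in addition carry long partially methylated domains, mostly gene-poor and inactive, in which methylation is not fully maintained. An average over 100 kb spans all of these, and it says nothing about any single CpG within the bin.

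Sequences from inside the highly methylated bins are shown because they carry the contrast described further on, between a methylated intron and an unmethylated gene start. Both are 200 bases of the plus strand of GRCh37 (hg19), in lower case with each CpG in capitals. They were picked with their values already known. The PPP6R2 window (chr22:50862774-50862973) is the stretch with the most CpGs at 75% or more in one of the bins with the highest WT level, within the gene of a regulatory subunit of a protein phosphatase. The DNMT3A window (chr2:25564936-25565135) is the stretch with the most CpGs at 20% or less within 1 kb of the start of that gene. Each lies within the named gene and overlaps no annotated exon.
PPP6R2: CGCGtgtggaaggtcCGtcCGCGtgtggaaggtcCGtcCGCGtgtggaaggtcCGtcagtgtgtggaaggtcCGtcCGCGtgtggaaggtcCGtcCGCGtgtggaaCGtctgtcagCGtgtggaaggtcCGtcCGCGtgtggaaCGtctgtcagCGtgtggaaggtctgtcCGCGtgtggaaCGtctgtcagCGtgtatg
DNMT3A: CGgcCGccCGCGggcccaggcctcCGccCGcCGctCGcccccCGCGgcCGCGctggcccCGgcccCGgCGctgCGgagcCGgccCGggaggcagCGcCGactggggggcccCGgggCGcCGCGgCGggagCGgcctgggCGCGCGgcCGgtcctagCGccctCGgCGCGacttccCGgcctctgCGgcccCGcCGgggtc

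The 26 CpGs of the PPP6R2 window, which lie in tandem copies of a short unit, were at 97.2% (95% Wilson interval 94.4 to 98.7) and 96.8% (93.8 to 98.4) in WT and at 94.9% (91.4 to 97.0) and 96.2% (92.9 to 97.97) in ZNF274KO. In contrast, the 38 CpGs of the DNMT3A window carried a methylated cytosine in 0 of 263 reads in WT 1 (upper limit of the Wilson interval 1.44%) and in 1.86% of 161 reads in WT 2, and in ZNF274KO in 0 of 248 (1.53%) and 0 of 249 (1.52%), although the 100 kb bin around it was a member at 76.8%. Intervals and limits cover counting error only. They treat the calls of 1 read at several CpGs as independent, so they are likely too narrow. When each window was read as 4 pieces of 50 bases after conversion, every piece had at most 2 places in the genome on either strand.

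The eligible bins fell into a low and a high population of levels. Of all eligible bins 17.2% lay under 25% in WT and 24.8% between 60% and 70%. The members form the upper flank of this high population and not a separate group. Of the 5225 members, 2679 lay between 75% and 80%, 1658 between 80% and 85%, 830 between 85% and 90% and 58 at 90% or more. The median member stood at 79.8% with quartiles of 77.2% and 83.5%, and the highest at 92.5%.

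**Figure D1:**
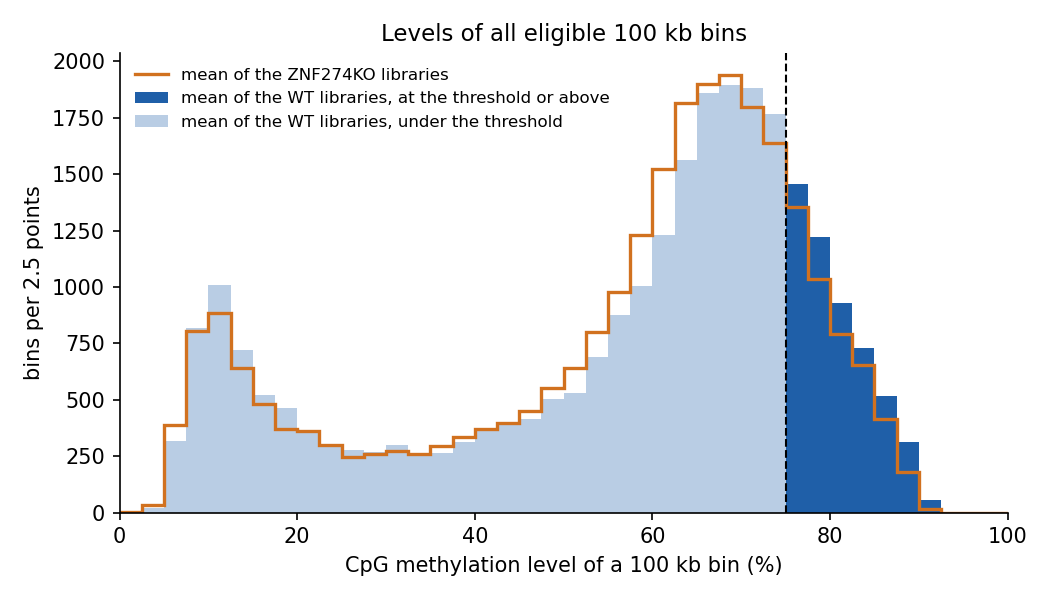
Number of eligible 100 kb bins (vertical axis) by CpG methylation level in steps of 2.5 points (horizontal axis). Filled bars give the mean of the WT libraries, dark at 75% and above (5225 bins), the line gives the mean of the ZNF274KO libraries (4446 bins at 75% or more), and the dashed line marks the threshold.

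The threshold cut through a continuous range. The members just inside it were the chromosome 12 bin from 132300001 to 132400000, with MMP17, a membrane-bound metalloproteinase, and the autophagy kinase gene ULK1, at a WT mean of 75.0002%, and the chromosome 9 bin from 70000001 to 70100000, which overlaps no protein-coding gene, at 75.001%. The chromosome 9 bin held only 351 to 630 reads per library, compared with 34968 to 40835 in the chromosome 12 bin, so its level is less exact. The eligible bins just outside were on chromosome 12 from 123700001 to 123800000, with MPHOSPH9, SBNO1 and MTRFR, at 74.9995%, and on chromosome 11 from 117000001 to 117100000, with PAFAH1B2, PCSK7 and SIDT2, at 74.999%. A further 3648 bins lay between 70% and 75%. Taken library by library, 5253 eligible bins reached 75% in WT 1, of which 5025 were members, and 5355 in WT 2, of which 5029 were members.

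The highest levels were found within long genes. The bin with the highest WT mean among those with 500 or more CpGs (chromosome 1, 155300001 to 155400000) lies almost entirely within ASH1L, which encodes a histone methyltransferase acting on H3K36 and spans 155305059 to 155532953 on the minus strand. It stood at 92.9% and 92.1% in WT and 91.8% and 90.6% in ZNF274KO. The next bin (chromosome 4, 42000001 to 42100000) holds most of SLC30A9, a zinc transporter gene at 41992519 to 42092478 on the plus strand, and stood at 92.1%, 92.3%, 91.2% and 90.3% in the same order. The bin that followed (chromosome 15, 28400001 to 28500000) lies wholly within HERC2, a ubiquitin ligase gene at 28356186 to 28567325 on the minus strand, at 92.5%, 91.8%, 91.6% and 90.3%. In each of these bins both ZNF274KO libraries lay under both WT libraries, an order that the choice by the highest WT levels favours. It did not hold for the TRRAP bin (chromosome 7, 98500001 to 98600000), also among the 10 highest, at 91.8% and 91.6% in WT and 91.9% and 90.1% in ZNF274KO.

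Highly methylated bins were found on all 21 chromosomes that entered, in unequal shares. They made up 39.2% of the eligible bins of chromosome 22 (138 of 352) and 37.7% of chromosome 17 (295 of 782), followed by 26.8% of chromosome 15. The smallest shares were 13.4% on chromosome 8 (192 of 1434), 14.8% on chromosomes 5 and 11, and 15.6% on chromosome 4. Chromosomes 22 and 17 also had the densest CpGs, with a median of 15.9 and 14.0 CpGs per kb over their eligible bins, and chromosome 4 had the fewest at 6.48. The shares did not follow the density throughout. Chromosome 8, with the smallest share, had 7.70 CpGs per kb, and chromosome 3, with a share of 18.3%, had 7.05. Chromosome 20 had 11.1 CpGs per kb and a share of 20.9%. Within each of the 21 chromosomes the members were denser in CpG than the other bins, by 1.04 to 8.95 CpGs per kb in the median. The pooled level of the members hardly differed between chromosomes, from 79.8% to 81.1% in WT. Bins whose centre lay within 2 Mb of a chromosome end were members in 29.2% of cases, against 18.5% of bins 20 Mb or more from an end, and the density of CpGs moved with this distance, from a median of 20.2 to 7.36 per kb.

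**Figure D2:**
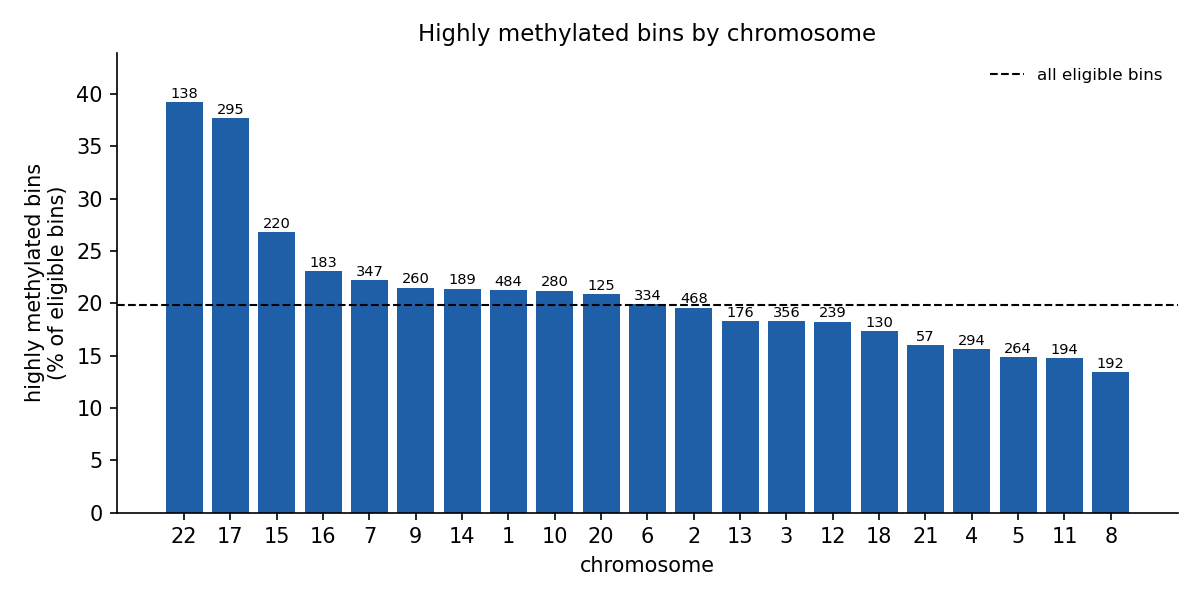
Highly methylated bins as a percentage of the eligible bins of each chromosome, ordered from highest to lowest, with the number of highly methylated bins above each bar. The dashed line is the share over all eligible bins (19.8%), and chromosomes 22 and 17 stand at 39.2% and 37.7%.

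Highly methylated bins neighboured each other. Of the eligible right-hand neighbours of members 47.2% were members too, compared with 13.1% of the neighbours of other bins. The members formed 2763 runs, of which 1560 were single bins, 612 were pairs, 510 had 3 to 5 bins and 81 had 6 or more. The eligible bins bordering a run were rarely low, with a median of 68.8% in WT and 3.19% of them under 50%.

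The longest run held 15 bins on chromosome 4 from 39700001 to 41200000. It covers, among others, APBB2, which encodes a binding partner of the amyloid precursor protein, the RNA-binding protein gene RBM47, the cohesin regulator gene PDS5A and the ubiquitin-conjugating enzyme gene UBE2K. Its level was 82.3% and 82.1% in WT and 81.5% and 80.5% in ZNF274KO, and its single bins ranged from 75.3% to 88.4% in WT. The run also holds CHRNA9, a nicotinic receptor subunit gene. There were 2 runs of 12 bins. The run on chromosome 1 from 245400001 to 246600000 lies for 96.7% of its length within SMYD3, a methyltransferase gene, and the kinesin gene KIF26B, at 81.3% ± 0.228 in WT and 79.9% ± 0.611 in ZNF274KO (SD, n = 2). The run on chromosome 4 from 151000001 to 152200000 covers LRBA and DCLK2, at 80.1% ± 0.492 and 78.6% ± 0.924. Another run of 9 bins lay wholly within a single gene, the adhesion molecule gene SDK1 on chromosome 7, at 80.2% ± 0.0464 and 79.2% ± 1.07.

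Neither CpG density nor gene content was used by the rule, and the members differed from the other eligible bins in both. The members had a median of 11.2 CpGs per kb (quartiles 8.33 and 15.01), compared with 7.52 (5.97 and 10.8) in the other eligible bins, and a GC content of 42.2% against 39.3%. In the decile of bins with the fewest CpGs, between 3.63 and 5.37 per kb, 2.59% were members, and in the decile with the most, 16.3 per kb or more, 37.1% were. Protein-coding genes covered a median of 93.1% of a member and 22.4% of another bin. Of the members 39.9% lay entirely within genes and 6.51% touched none, compared with 16.7% and 41.0% of the other bins.

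The share of members differed by each property at a given level of the other. Among the bins without a gene, 0.537% of the CpG-poorest tertile and 19.5% of the CpG-richest tertile were members. Among the bins fully covered by genes, the shares were 19.7% and 55.1%. The CpG-poorest bins within genes were thus members about as often as the CpG-richest bins outside them. These are shares over bins, which are not independent of their neighbours, and no test was made of them.

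**Figure D3:**
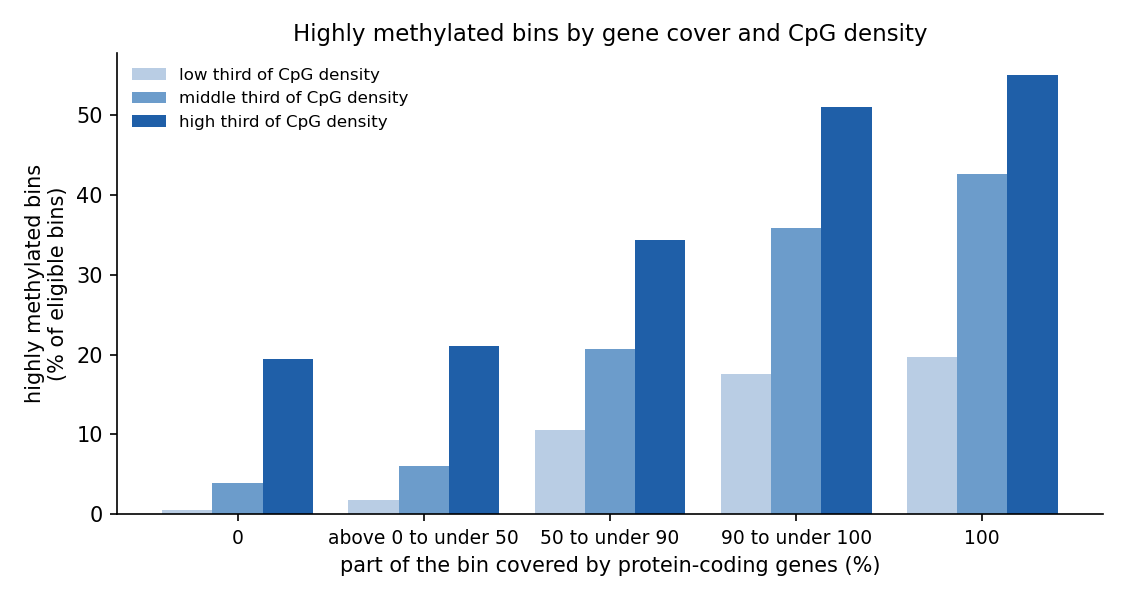
Percentage of eligible 100 kb bins that were highly methylated, by the part of the bin covered by protein-coding genes (horizontal axis, %) and by tertile of CpG density (shades of blue). The share rises from 0.537% for CpG-poor bins without genes to 55.1% for CpG-rich bins covered by genes throughout.

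Despite their high mean, the members were not uniform inside. Gene bodies within them stood at 83.6% ± 0.279 in WT, sequence between genes at 78.6% ± 0.0765, and promoters (1 kb either side of a gene start) at 30.3% ± 0.175 (SD, n = 2). In the other eligible bins the same classes stood at 63.6%, 51.1% and 20.8%, so that the members exceeded them most between genes and least at promoters. Of 3171 promoters in members with 10 or more CpGs, 47.7% were at 20% or less and 30.5% at 75% or more, compared with 57.5% and 14.5% of the 13843 promoters elsewhere. Over single CpGs with 5 or more reads in every library, 73.2% were at 80% or more and 6.999% at 20% or less in WT. In ZNF274KO these shares were 71.1% and 6.98%, and 21.9% lay between, compared with 19.8% in WT. In the other eligible bins the share between likewise went from 28.3% in WT to 30.5% in ZNF274KO. Their shares at 80% or more were 41.4% and 40.3%, and at 20% or less 30.3% and 29.3%.

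The level went up with local CpG density and then down. In tiles of 1 kb with 1 to 4 CpGs, the CpGs of members stood at 75.5% ± 0.249 in WT, and in tiles with 20 to 39 CpGs at 84.4% ± 0.396. In tiles with 40 or more CpGs, the range of CpG islands, they stood at 58.4% ± 0.222. The other eligible bins followed the same course lower down, with 39.9%, 67.3% and 33.1%. The gap between both kinds of bin was thus wider in the CpG-poorest tiles than in tiles with 20 to 39 CpGs. At 10 kb, 2.41% of 51844 tiles in members were under 50%, compared with 43.2% elsewhere, and 22.9% of the members with 8 or more measured tiles held at least 1 such tile.

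**Figure D4:**
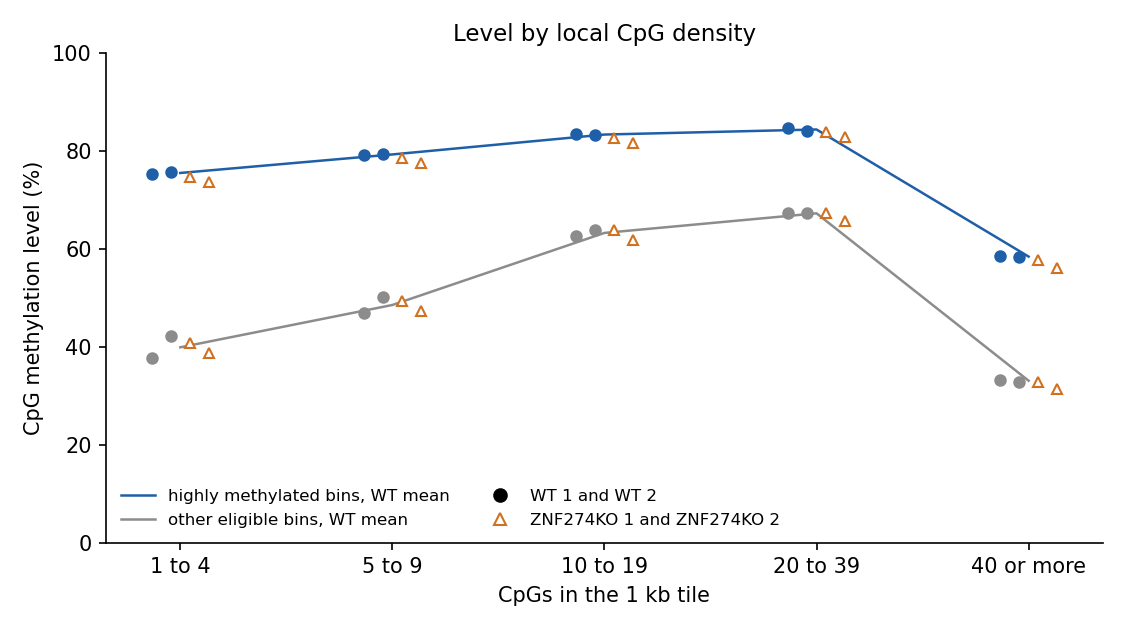
CpG methylation level (%, vertical axis) of all CpGs in 1 kb tiles, by the number of CpGs in the tile (horizontal axis), for highly methylated bins (blue) and other eligible bins (grey). Circles are the WT libraries, triangles the ZNF274KO libraries and lines the WT mean, which in highly methylated bins goes from 75.5% to 84.4% and then to 58.4% in the densest tiles.

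Gene families of restricted expression were rarely found in the members, as counted from the midpoint of each gene. Of all 17733 protein-coding genes of eligible bins, 27.1% had their midpoint in a member. The corresponding count was 4 of 394 olfactory receptor genes, 4 of 149 keratin and keratin-associated genes, 4 of 39 HOX genes, 0 of 53 clustered protocadherins, 0 of 40 beta-defensins (DEFB) and 2 of 32 GABA and ionotropic glutamate receptor genes (GABR and GRI), GRIN2C and GABRD. Other neurotransmitter receptors, such as the nicotinic ones, were not in this list. Taste receptor genes were the exception with 9 of 27. These 9 lie next to each other on chromosome 12, in 3 bins, and are small genes. The bin of TAS2R50, TAS2R19, TAS2R20 and TAS2R31 stood at 85.1% and 84.98% in WT and 84.5% and 84.6% in ZNF274KO. The keratin genes included KRT8 and KRT18, the keratins of simple epithelia, which share a bin at 75.6%, 74.5%, 73.8% and 72.4%. The HOX genes were HOXB13 and, in 1 bin, HOXD1, HOXD3 and HOXD4.

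Families that are mostly broadly expressed came nearer to the share over all genes. All of these lists were drawn up by gene symbol, without expression data. Members held 10 of 69 ribosomal protein genes, 11 of 36 proteasome genes, 11 of 40 genes of respiratory complex I and its assembly factors (NDUF), 5 of 24 mediator genes, 7 of 31 RNA polymerase genes and 6 of 18 splicing genes, together 50 of 218 (22.9%), compared with 23 of 734 (3.13%) for the restricted families. NDUFB2, a complex I subunit gene, lay in the highest of these bins with 88.6% in both WT libraries, 87.8% in ZNF274KO 1 and 87.0% in ZNF274KO 2. Many genes of the restricted families share bins, and 394 of the 734 are olfactory receptor genes. The pooled shares thus do not count independent genes, and no test was made of them. Over all protein-coding genes, those with their midpoint in a member had a median length of 59313 bases, compared with 22767 bases for the other genes of eligible bins. The order was the same in the 6 broadly expressed lists and not in all of the restricted ones. The 2 GABR and GRI genes in members had a median length of 15448 bases, compared with 207324 bases for the others, the HOX genes 3114 and 4221 bases, and the clustered protocadherins, with a median of 110198 bases, had no gene in a member. Zinc finger genes (names with ZNF, ZSCAN or ZKSCAN) were in members in 39 of 276 cases (14.1%), with ZNF236 in the highest bin at a WT mean of 87.7%, and chromosome 19, which carries many more, did not enter.

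The genes of the methylation machinery itself lay on both sides of the threshold. Of 14 listed genes 12 were in eligible bins and 7 in members. All 4 listed methyltransferase genes for H3K36 were in bins near the top of the range, with NSD3 at a WT mean of 90.8%, NSD1 at 90.5%, NSD2 at 90.2% and SETD2 at 89.4%. The SETD2 bin, within the gene for the enzyme that places H3K36me3 along transcribed genes, stood at 89.6% and 89.1% in WT and 87.5% and 87.6% in ZNF274KO. TET2, which encodes an enzyme that oxidises methylated cytosine, followed at 84.8%. The bins of the de novo methyltransferases DNMT3A and DNMT3B were nearer to the threshold, both at 76.8%. DNMT3A stood at 76.6% and 76.9% in WT and 76.9% and 74.2% in ZNF274KO, so that the groups overlapped. The bins of TET1 (74.9%), TET3 (72.6%), and of the methyl-CpG-binding protein genes MBD4 (71.5%), MBD2 (70.7%) and MBD1 (57.5%) were not members.

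The comparison with ZNF274KO asked how these bins stood in cells without ZNF274. Over all members, 80.6% and 80.3% of reads were methylated in the WT libraries and 79.8% and 78.6% in the ZNF274KO libraries. Both ZNF274KO libraries were under both WT libraries, and ZNF274KO 2 was the lowest. The difference from the WT mean was -0.656 points for ZNF274KO 1 and -1.82 points for ZNF274KO 2, which makes -1.24 points for the mean (80.4% ± 0.238 and 79.2% ± 0.826, SD, n = 2). The WT side of this difference chose the members, so it was not tested. When WT 1 alone chose the bins (5253) and the knockout was set against WT 2, the differences were -0.392 and -1.57 points, and when WT 2 chose (5355) and WT 1 was the reference, -0.756 and -1.91 points. WT 2 itself differed from WT 1 by -0.489 points in the former set, more than ZNF274KO 1 differed from WT 2. In the latter, WT 1 differed from WT 2 by 0.140 points, less than ZNF274KO 1 differed from WT 1. An unplanned choice by the mean of the ZNF274KO libraries (4446 bins) favours the opposite sign. In these bins the differences from the WT mean were -0.528 and -1.66 points. They were not tested either.

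The difference was small and varied between members, and in the median it was larger in ZNF274KO 2. ZNF274KO 1 was under the WT mean in 4155 members (79.5%) and ZNF274KO 2 in 5103 (97.7%), with median differences of -0.730 points (quartiles -1.34 and -0.141) and -1.76 points (-2.42 and -1.21). Both ZNF274KO libraries lay under both WT libraries in 3126 members (59.8%) and over both in 27 (0.517%). Over all 28458 bins tested, which include chromosomes 19 and X, these shares were 28.5% and 8.85%, but the choice by high WT levels bears on the counts of members, so nothing is read from this. On each of the 21 chromosomes the members were lower in both ZNF274KO libraries, with differences of -0.907 to -0.249 points in ZNF274KO 1 and of -2.02 to -1.62 points in ZNF274KO 2. The choice by high WT levels favours this sign too, and chromosomes of the same libraries are not replicates. The other eligible bins differed by 0.614 points in ZNF274KO 1 and by -1.44 points in ZNF274KO 2, with opposite signs, but this came from the low levels and did not hold for the bins nearest to the members. The 3648 bins between 70% and 75% differed by -0.425 and -2.02 points, about as the members did, and the 6547 between 60% and 70% by -0.0022 and -2.06 points. Only in the classes under 60% was ZNF274KO 1 above the WT mean. It was so by 1.37 points under 25%, 3.85 points from 25% to 50% and 1.44 points from 50% to 60%. The WT libraries stood at 36.8% and 40.7% from 25% to 50%, and at 54.1% and 57.5% from 50% to 60%. In the latter class, and over all the other eligible bins, ZNF274KO 1 lay between the WT libraries. Classes set by a low WT level favour higher values in ZNF274KO, so nothing is read from these differences. ZNF274KO 2 was also the library with the lowest level outside the members (52.9%) and under ZNF274KO 1 in 86.8% of members and 87.2% of the other bins.

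**Figure D5:**
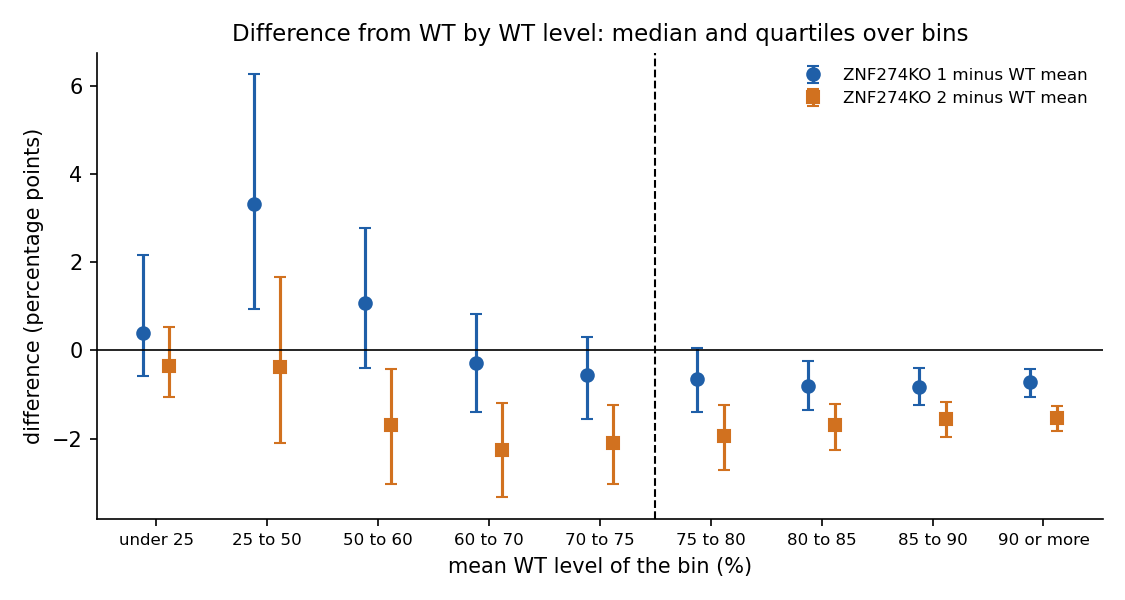
Difference of each ZNF274KO library from the WT mean in percentage points (vertical axis) by the WT level of the bin (horizontal axis, %), with points at the median over bins and bars from the lower to the upper quartile. To the right of the dashed line, at 75% and above, ZNF274KO 1 lies between -0.836 and -0.644 points and ZNF274KO 2 between -1.93 and -1.54 points in the median.

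Fewer bins reached the threshold in the knockout. Of all eligible bins, 4915 were at 75% or more in ZNF274KO 1 and 4079 in ZNF274KO 2, compared with 5253 and 5355 in the WT libraries. In the mean of the ZNF274KO libraries 4410 of the 5225 members (84.4%) were still at 75% or more, with 4714 in ZNF274KO 1 and 4061 in ZNF274KO 2, and 3980 members (76.2%) reached it in all 4 libraries. Of the 815 members under 75% in the knockout mean, 729 had a WT level under 77%, and 1 had a WT level of 80% or more. In the other direction, 36 bins reached 75% in the knockout mean without being members. The choice of members by their WT levels favours such losses over gains, so nothing is read from their balance.

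No member was called in the test of every bin. The edgeR quasi-likelihood test was made on methylated and unmethylated reads of 28458 bins, with Benjamini-Hochberg adjustment. It called 153 bins higher in ZNF274KO at an adjusted p under 0.05 (0.538%) and 0 lower (0%), and 0 members in either direction. Fitted without chromosomes 19 and X, which hold no members, it called 65 of 26403 bins higher and 0 lower. At an unadjusted p under 0.05, 250 members (4.78%) were lower in ZNF274KO and 0 higher, compared with 529 lower (1.86%) among all bins tested and 1502 in either direction. This number of members changed widely when single libraries were left out. By limma 0 members were called, and 93 (1.78%) were lower at an unadjusted p under 0.05, compared with 362 of all bins (1.27%). The choice by high WT levels favours lower values in ZNF274KO, so nothing is read from these shares. With WT 1 left out, 3 of the 5355 bins at 75% or more in WT 2 were called lower (0.056%), a smaller share than over all bins (205, or 0.72%). In that fit the ZNF274KO libraries alone give the spread, and WT 2 is assumed to vary like them. The 3 bins were those of EYS, a retinal gene, and of the cadherin gene CDH12, and 1 without protein-coding genes, and in each of them WT 2 stood above WT 1.

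Since no member was called, some of the largest differences are named, picked after their values were seen, and others of like size are left out. Among members with 1000 or more reads in every library, the EYS bin on chromosome 6 (64700001 to 64800000) had the largest negative difference, with 73.5% and 78.3% in WT and 70.1% and 68.7% in ZNF274KO (edgeR adjusted p = 0.801). The CDH12 bin on chromosome 5 (22500001 to 22600000) stood at 75.8%, 80.6%, 73.9% and 71.4% (adjusted p = 0.907). In both bins the WT libraries themselves lay several points apart, and the groups did not overlap. A bin on chromosome 2 without protein-coding genes (112000001 to 112100000) had closer WT libraries, at 81.9% and 83.2%, and 76.4% and 79.1% in ZNF274KO (adjusted p = 0.651). The most negative difference without this read minimum was in a bin of AGAP9 and ANXA8 on chromosome 10 (48200001 to 48300000), where ZNF274KO 1 stood at 61.6% and the other libraries between 79.2% and 80.2%, on 240 to 369 reads over 1206 CpGs. In the opposite direction, the ADAMTS2 bin on chromosome 5 (178600001 to 178700000), in the gene of a procollagen peptidase, stood at 77.9% and 74.7% in WT and 80.1% and 77.7% in ZNF274KO, with overlapping groups. The collagen gene COL23A1, on the same chromosome arm (177700001 to 177800000), had a bin at 75.2%, 75.01%, 77.03% and 76.6%, with no overlap (adjusted p = 0.907).

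The summed depth of the members was like that of the rest. They took 25.02% to 25.1% of the eligible reads in each library, as they hold 25.1% of the CpGs, with means of 25.07% in WT and 25.08% in ZNF274KO. An exact two-sided permutation test over libraries gave p = 1 for this share, but with 2 libraries per group it cannot go below 0.333, so it shows nothing about an absence of difference. A member had a median of 9297 to 11501 reads per library. At 9297 reads a level of 72.4% has a 95% Wilson interval of 71.5 to 73.3, so the difference of a single member is near the counting error of 1 library. The shallowest member had 204 reads, where 76.0% carries an interval of 69.7 to 81.3, and 37 members had fewer than 1000 reads in some library. Both intervals treat calls of the same read as independent, so they are likely too narrow. Levels on both strands were alike, with 80.6% on each in WT 1 and 78.6% on each in ZNF274KO 2.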

How the data were processed

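EM-seq of HEK293T cells gave 2 WT and 2 ZNF274KO libraries, assigned by genotype label. From the reads, mapped by the authors to hg19 plus rDNA (Msuite2 with hisat2), counts of each base call were deposited per CpG and library, without pooling or normalisation. A C call was taken as methylated and a T call as unmethylated. How duplicates and poorly mapped reads were handled is not given in the sources used here. On chromosomes 1 to 22 and X every listed site was a CG in GRCh37.

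Counts were summed over 100 kb bins. Bins of those chromosomes with 200 reads in every library were tested together by the quasi-likelihood method of edgeR 4.0.16 (R 4.3.3). It fitted each library's coverage and the log-odds of methylation of each group. A run on simulated data used changes larger than the difference over members. It therefore does not show whether differences of that size would be called. The share of reads in members was compared by an exact permutation test. Alternatives were limma 3.58.1, other thresholds, read minimums and bin phases, a replicate block, centring and each library left out. Gene models were those of GENCODE mapped to GRCh37. Tables and plots were made in Python 3.11.15 with pandas 2.3.3, numpy 2.4.6, matplotlib 3.10.9 and scipy 1.17.1.

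The members, gene lists and rules were chosen with earlier results of these data known. Bins named were the 3 highest with 500 or more CpGs, the 3 longest runs, 2 on each side of the threshold, the largest differences among called members (none) and the bins of the listed methylation genes. Genes named for a bin were up to 3 with the most bases in it. Other bins and genes were named after their values were seen. Other sequence windows are not reported here.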

Additional observations from a re-analysis of the deposited data

How the results depend on the processing

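The difference over members stayed negative and the density ratio above 1 under every alternative run. Followed were the numbers of members, of members still at the threshold and of members called, the difference, the density ratio and the longest run. All values of these but those given here stayed within 1.5 times the value reported or, for levels and densities, within the spread between libraries. Other counts moved more. Without chromosomes 19 and X, 65 bins were called higher, and the replicate block had 408 members at an unadjusted edgeR p under 0.05. The number of members at that p also changed with single libraries left out. A threshold of 70% gave 8873 members, 7781 of them at 70% or more in the ZNF274KO mean, a longest run of 30 bins and a CpG density 1.56 times that of the other bins. A threshold of 80% gave 2546, 2046, 8 bins and 1.31 times, compared with 1.48 times at 75%. The difference over members was -0.623 points after subtraction of the difference over all eligible bins.

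With each library left out in turn, members numbered 5225 to 5355, of which 4061 to 4715 reached the threshold in the ZNF274KO mean, the longest run had 12 to 15 bins, the density ratio was 1.44 to 1.52, and 0 to 3 members were called. The difference was -1.82 without ZNF274KO 1 and -0.656 without ZNF274KO 2.

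The replicate numbers were not taken as pairs, since the labels do not say that equal numbers belong together. The deviations of equally numbered libraries had a correlation of -0.183 over 28458 bins. Both deviations changed with the level, however. The median of WT 2 minus WT 1 was 3.37 points in bins at 25% to 50% and -0.223 in members. For ZNF274KO 2 minus ZNF274KO 1 it was -3.82 and -1.01. The correlation therefore cannot show whether equal numbers share a batch. The replicate block called 6 members, all lower, and 362 bins higher and 13 lower in all. With the numbers crossed, chosen after seeing the data, it called 2 members, and 650 bins higher and 31 lower in all. Without WT replicate 1 the calls over all bins were 332 higher and 205 lower, without WT replicate 2 they were 826 higher and 1 lower, and limma called 69 higher. The cause of these shifts was not tested. With 2 libraries per group, the spread behind each bin test rests on few libraries.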
